A study of Mus musculus with 16 samples.

Results

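The choroid plexus is the epithelial tissue of the brain ventricles that makes cerebrospinal fluid, and the 8 genes Ttr, Kl, Folr1, Clic6, Otx2, Slc4a5, Prlr and Aqp1 are commonly used to recognise its epithelium. All probe sets whose gene symbol is one of these 8 were taken. They comprised 12 probe sets for 7 of the 8 genes, among 34945 probe sets with 1 symbol for 18193 genes; Prlr, the prolactin receptor, is not analysed here. Ttr had 4 probe sets, Kl and Clic6 had 2 each, and Folr1, Otx2, Slc4a5 and Aqp1 had 1 each.

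RNA came from organs of C57BL/6J mice at postnatal day 7, and the question of the study was how each organ responded to dexamethasone, a synthetic agonist of the glucocorticoid receptor. The groups were cerebellum of dexamethasone-treated mice (arrays B39, B49, B50 and B52), cerebellum of vehicle-treated mice (B78, B79, B80 and B81), lung of dexamethasone-treated mice (B28, B31, B40 and B46) and lung of vehicle-treated mice (B12, B14, B19 and B22). Each array held 1 sample of a whole organ, so any choroid plexus or other tissue left attached at dissection was measured with it. The labels do not give sex, and Xist, the RNA of the inactive X chromosome of females, was above 10 on 2 dexamethasone and 1 vehicle cerebellar arrays and on 3 dexamethasone and 1 vehicle lung arrays, and at most 6.93 on the others. Litter, dose and schedule are likewise unstated, so a p-value measures only how far these particular samples spread.

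Choroid plexus epithelium sits on the roof of the fourth ventricle, directly under the cerebellum. Its cells pump ions and bicarbonate, pass water, and export carrier proteins and vitamins into the fluid. Transthyretin (Ttr) carries thyroxine and retinol-binding protein, Folr1 moves folate, Klotho (Kl) is the co-receptor of FGF23, Clic6 belongs to the chloride intracellular channel family, Slc4a5 is a sodium bicarbonate cotransporter and Aqp1 is a water channel. Otx2 is a homeodomain transcription factor needed to form the choroid plexus, and it is also known from granule cell precursors of the posterior cerebellum.

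Values are on the log2 scale made by RMA, so a difference of 1 is a doubling of signal, and a probe set's level is compared only with itself in other arrays. A gene with several probe sets is represented by the one with the highest mean. Differences were tested with limma, with Benjamini-Hochberg adjustment over all 18193 genes, and a gene was called at an adjusted p under 0.05. Array medians ran from 5.87 to 6.00, and arrays of a group correlated at 0.979 to 0.994. The 10 cerebellum markers had mean levels of 11.01 to 11.68 on cerebellar arrays against 4.59 to 5.03 on lung arrays, and the 10 lung markers had 5.56 to 5.95 on cerebellar arrays against 12.16 to 12.85 on lung arrays.

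In vehicle mice, 4 of the 7 measured genes were higher in cerebellum than in lung (Ttr, Otx2, Folr1 and Kl), Slc4a5 and Aqp1 were lower, and Clic6 was not called. Over all genes, 57.7% were called in this comparison, 29.7% higher and 28% lower in cerebellum. The count of 6 called of 7 stands beside that background. Clic6, Slc4a5 and Aqp1 had signal in lung that was not called lower than in cerebellum, so across these organs they do not mark choroid plexus by presence alone.

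Ttr, the thyroxine carrier, read 14.34, 13.77, 13.86 and 14.33 in the vehicle cerebella, against 6.18, 6.16, 6.61 and 7.08 in the vehicle lungs. The organs did not overlap, and cerebella lay wholly above lungs for 29% and wholly below for 27.4% of all genes. The difference was 7.57 ± 0.19 on the log2 scale (SE), or 190-fold (limma, adjusted p = 3.6e-15), and the 3 other Ttr probe sets gave differences of 9.64 to 9.80. In cerebellum all 4 probe sets lay between 13.43 and 14.50, close to the brightest value of any probe set on those arrays (14.64 to 14.73), where an array can no longer resolve differences well. In lung the 3 other probe sets lay between 3.65 and 5.24, near the floor of the arrays, whose lower quartiles were 4.54 to 4.67.

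Otx2, the transcription factor, read 8.46, 8.34, 8.59 and 8.47 in the vehicle cerebella, against 4.30, 4.57, 4.31 and 4.26 in the vehicle lungs. All lung values lay near or below the lower quartile of an array. The difference was 4.10 ± 0.13, or 17.2-fold (limma, adjusted p = 5.05e-14).

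Folr1, the folate receptor, read 8.30, 7.29, 7.09 and 7.87 in the vehicle cerebella, against 4.84, 4.68, 5.24 and 5.06 in the vehicle lungs. Every cerebellum lay above every lung, by 2.68 ± 0.27 on average, or 6.41-fold (limma, adjusted p = 1.7e-07). Kl, the FGF23 co-receptor, read 5.86, 4.60, 4.81 and 5.86 in the vehicle cerebella, against 4.28, 3.87, 3.64 and 4.26 in the vehicle lungs. Every cerebellum again lay above every lung, and the difference was 1.27 ± 0.33, or 2.41-fold (limma, adjusted p = 0.00347). This rested on 1 of the 2 Kl probe sets: the other lay between 4.06 and 4.91 on all 16 arrays, near the floor, and was 0.33 lower in cerebellum (log2 difference -0.33 ± 0.13, limma, adjusted p = 0.0533 over the probe sets).

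Aqp1, the water channel, is also a channel of lung vessels. It read 7.10, 6.26, 6.48 and 7.19 in the vehicle cerebella, against 11.96, 12.05, 12.00 and 12.15 in the vehicle lungs. The lung values were tightly grouped and far above the cerebellar ones, with a cerebellum minus lung difference of -5.28 ± 0.21, or 38.8-fold lower in cerebellum (limma, adjusted p = 7.13e-13). Slc4a5, the bicarbonate cotransporter, read 6.58, 5.89, 6.47 and 6.51 in the vehicle cerebella, against 6.87, 7.08, 6.72 and 6.90 in the vehicle lungs. The cerebella lay below the lungs without overlap, by a log2 difference of -0.53 ± 0.22 (limma, adjusted p = 0.046). The call was lost in 14 of 26 alternatives, where the adjusted p reached 0.984; without vehicle cerebellum B79 the difference was -0.37 (adjusted p = 0.165).

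Clic6, of the chloride intracellular channel family, read 9.29, 7.89, 8.31 and 9.30 in the vehicle cerebella, against 9.14, 8.92, 8.68 and 9.17 in the vehicle lungs. The organs overlapped, and the log2 difference of -0.28 ± 0.31 had a 95% interval of -0.92 to 0.37 (limma, adjusted p = 0.473). The second Clic6 probe set differed by 0.00 ± 0.22.

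**Figure D1:**
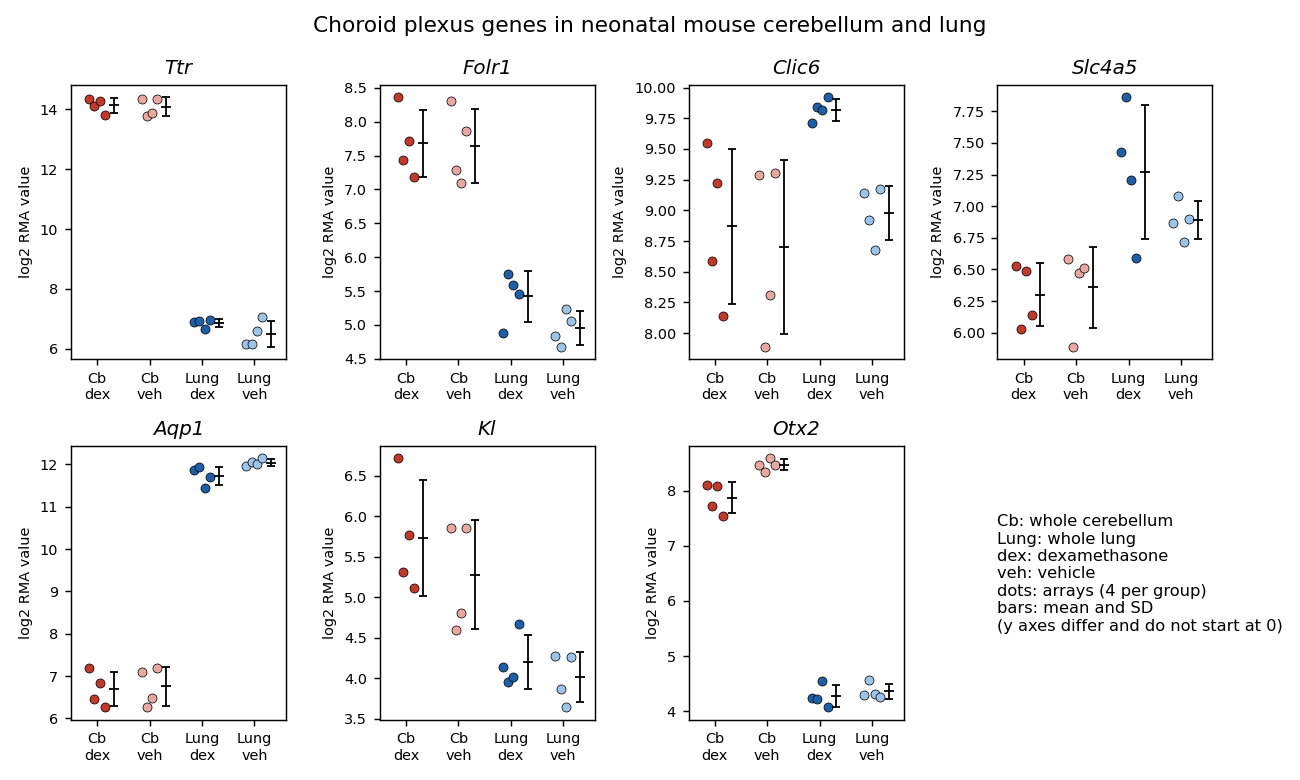
Log2 RMA values (vertical axis, a separate scale in each panel, none starting at 0) of the 7 measured choroid plexus genes, each by its brightest probe set, in cerebellum with dexamethasone, cerebellum with vehicle, lung with dexamethasone and lung with vehicle; dots are arrays and bars the mean and SD of 4 arrays. Ttr, Otx2, Folr1 and Kl lie higher in cerebellum, Aqp1 lies higher in lung, the dexamethasone cerebella lie below the vehicle cerebella for Otx2, and the dexamethasone lungs lie above the vehicle lungs for Clic6.

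Dexamethasone lowered 1 of the 7 genes in cerebellum, the transcription factor Otx2, and none of the 7 was called higher there. Over all genes, 4.8% were called in cerebellum, 2.84% higher and 1.97% lower. Otx2 read 8.11, 7.73, 8.08 and 7.54 in the dexamethasone cerebella, against 8.46, 8.34, 8.59 and 8.47 in the vehicle cerebella. The highest treated cerebellum lay below the lowest vehicle cerebellum, a pattern that 5.44% of all genes showed in this direction, while 7.13% showed it upward.

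The means of Otx2 were 7.87 ± 0.28 in dexamethasone and 8.47 ± 0.10 in vehicle cerebella (SD, n = 4 each). The log2 difference was -0.60 ± 0.13, with a 95% interval of -0.88 to -0.32, or 1.51-fold lower after dexamethasone (limma, adjusted p = 0.014). The call held in all 27 alternatives tried, with differences from -0.68 to -0.49 and adjusted p from 0.0019 to 0.0499. Not all of them could move the difference. Otx2 has 1 probe set, so averaging probe sets or fitting each alone used the same values, as did leaving out dim genes. Leaving out a lung array kept the cerebellar difference at -0.60 and could change only its error and adjusted p. The highest adjusted p, 0.0499, came without dexamethasone cerebellum B49. In whole-organ RNA, fewer cells of a type and less RNA per cell cannot be told apart.

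The other 6 genes were not called in cerebellum. Ttr read 14.33, 14.09, 14.28 and 13.80 in the dexamethasone cerebella, within the range of the vehicle values given above, and its log2 difference was 0.05 ± 0.19 with a 95% interval of -0.36 to 0.45 (limma, adjusted p = 0.96). The 3 other Ttr probe sets differed by -0.04 to -0.01. At so bright a signal a change could be compressed.

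Folr1 read 8.36, 7.44, 7.72 and 7.19 in the dexamethasone cerebella, with a log2 difference from vehicle of 0.04 ± 0.27 (limma, adjusted p = 0.976). Kl read 6.72, 5.31, 5.77 and 5.12 there, with a difference of 0.45 ± 0.33 (limma, adjusted p = 0.59). The Kl value rested on single arrays: it was 0.12 without dexamethasone cerebellum B39, 0.22 without vehicle cerebellum B79, 0.04 with array weights and -0.09 on the second probe set. For both genes the treated and vehicle cerebella overlapped, and the 95% interval, -0.54 to 0.62 for Folr1 and -0.26 to 1.16 for Kl, leaves room for changes that these arrays could not resolve.

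Clic6 read 9.55, 8.59, 9.22 and 8.14 in the dexamethasone cerebella, and the difference from vehicle was 0.18 ± 0.31, with a 95% interval of -0.47 to 0.82 (limma, adjusted p = 0.877). Slc4a5 read 6.53, 6.03, 6.49 and 6.14 there, with a difference of -0.06 ± 0.22 (limma, adjusted p = 0.951). Aqp1 read 7.20, 6.46, 6.83 and 6.26, with a difference of -0.07 ± 0.21 (limma, adjusted p = 0.94). Treated and vehicle cerebella overlapped for all 3 genes. Over the alternatives tried, the uncalled differences ranged from -0.07 to 0.16 for Ttr, -0.27 to 0.26 for Folr1, -0.15 to 0.42 for Clic6, -0.22 to 0.03 for Slc4a5 and -0.30 to 0.07 for Aqp1.

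The promoter windows of Otx2 are printed because Otx2 was the gene called in cerebellum, and that of Kl because Kl was among the genes that varied together over the cerebellar arrays. Windows run from 250 bases before to 50 after a transcript start and come from RefSeq, build GRCm38.p6. The table used here held 7 windows for 4 of the 7 genes (4 for Otx2, and 1 each for Kl, Slc4a5 and Aqp1). Both strands were searched for TAATCC (reverse complement GGATTA), a motif bound by OTX homeodomain proteins, and for AGAACA (reverse complement TGTTCT), a half-site of the glucocorticoid receptor. The first is in 7.06% and the second in 19% of all 32851 windows of this length. Capitals mark the match, with GGATTA at base 40 of the first sequence and TGTTCT at base 25 of the second and base 140 of the third.
Otx2 chr14:48665060-48665359, minus strand: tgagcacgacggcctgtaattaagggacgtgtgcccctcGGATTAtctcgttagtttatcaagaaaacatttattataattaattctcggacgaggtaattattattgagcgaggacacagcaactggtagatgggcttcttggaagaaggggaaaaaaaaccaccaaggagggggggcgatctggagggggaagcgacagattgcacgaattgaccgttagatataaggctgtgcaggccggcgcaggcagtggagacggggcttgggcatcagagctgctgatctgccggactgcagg
Otx2 chr14:48662685-48662984, minus strand: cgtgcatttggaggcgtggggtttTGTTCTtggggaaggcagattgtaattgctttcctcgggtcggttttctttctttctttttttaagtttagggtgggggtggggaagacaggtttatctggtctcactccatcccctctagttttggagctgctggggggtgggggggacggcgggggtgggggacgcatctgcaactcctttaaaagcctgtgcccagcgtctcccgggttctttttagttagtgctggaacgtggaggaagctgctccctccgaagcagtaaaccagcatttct
Kl chr5:150952357-150952656, plus strand: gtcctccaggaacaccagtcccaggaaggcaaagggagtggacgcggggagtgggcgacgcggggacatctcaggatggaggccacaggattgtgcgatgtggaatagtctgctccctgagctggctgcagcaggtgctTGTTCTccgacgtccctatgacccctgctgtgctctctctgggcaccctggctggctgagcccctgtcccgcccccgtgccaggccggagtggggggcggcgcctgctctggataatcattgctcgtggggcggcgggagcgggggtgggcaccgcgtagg
The window of Slc4a5 also held TGTTCT, at base 240. The other 2 Otx2 windows and the window of Aqp1 held neither. A match is a run of letters and no measurement of binding.

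Apart from Otx2, the genes differed mainly between individual cerebella of the same treatment, and they did so together. The 4 arrays with the highest Ttr were B78, B81, B39 and B50, which are 2 vehicle and 2 dexamethasone cerebella. The same 4 arrays were also the 4 highest for Kl, Folr1, Clic6, Slc4a5 and Aqp1, thus for 5 of the 6 other genes, while 4.52% of the other 18192 genes had these 4 arrays on top. For Slc4a5 the margin was small, with 6.49 in B50 as the fourth value and 6.47 in B80 as the fifth. The order of Ttr, on which these counts rest, is that of the probe set that represents it. On another Ttr probe set B80 (14.18) lay above B50 (14.13), and on a further one B49 (13.66) lay above B50 (13.64). This way of reading the arrays was chosen after their values were seen, and no test is attached to it.

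Otx2 was the exception. Its 4 highest cerebella were the 4 vehicle arrays, which restates that its treated and vehicle cerebella did not overlap. B80, which had low Ttr, Kl, Folr1 and Clic6, had the highest Otx2 at 8.59. Within the dexamethasone cerebella, however, Otx2 was higher in B39 and B50, at 8.11 and 8.08, than in B49 and B52, at 7.73 and 7.54.

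Over the 8 cerebella Kl spanned 4.60 to 6.72, or 4.37-fold, Clic6 3.17-fold and Folr1 2.41-fold. The range of Kl rested on B39: without it Kl spanned 2.41-fold and Clic6 2.66-fold, and the second Kl probe set lay between 4.06 and 4.46 in all cerebella. Otx2 spanned 2.08-fold, Aqp1 1.91-fold, Slc4a5 1.62-fold and Ttr, whose signal was close to the top of the array, 1.49-fold. Clic6 had a within-group SD of 0.63 in dexamethasone and 0.71 in vehicle cerebella, against 0.09 in dexamethasone and 0.22 in vehicle lungs. This did not hold for every gene. Over the lung arrays Slc4a5 spanned 2.42-fold and Ttr 1.89-fold, more than in cerebellum, whereas the other genes spanned more in cerebellum.

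**Figure D2:**
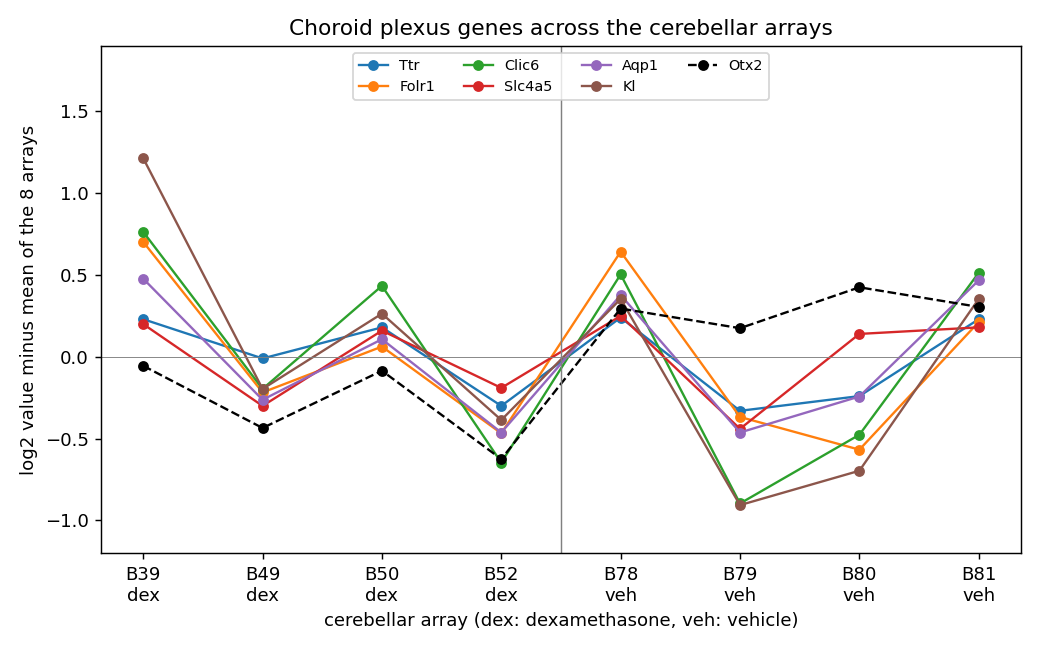
Deviation of each of the 7 genes from its own mean over the 8 cerebellar arrays (vertical axis, log2), by array (horizontal axis, dexamethasone to the left of the line and vehicle to the right); lines only connect the points of a gene. Ttr, Folr1, Clic6, Slc4a5, Aqp1 and Kl are high in B39, B50, B78 and B81, whereas Otx2 (dashed) is higher in the 4 vehicle arrays than in the 4 dexamethasone arrays.

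Across the 8 cerebella, Pearson's r with Ttr was 0.98 for Clic6, 0.94 for Aqp1, 0.89 for Folr1, 0.88 for Kl, 0.73 for Slc4a5 and 0.22 for Otx2. Spearman's rho was 0.90 for Clic6 and Slc4a5, 0.88 for Kl, 0.87 for Aqp1, 0.83 for Folr1 and 0.31 for Otx2. The treatment difference of Otx2 enters both of its values. On deviations from the group means r was 0.98 for Clic6, 0.96 for Aqp1, 0.91 for Kl, 0.89 for Folr1, 0.75 for Slc4a5 and 0.59 for Otx2. Without B79 and B52, the arrays farthest from the median of Ttr, r was 0.96 for Clic6, 0.89 for Aqp1, 0.90 for Folr1, 0.85 for Kl, 0.41 for Slc4a5 and -0.10 for Otx2, so the relation of Slc4a5 rested largely on those arrays. These correlations describe only 8 arrays, whose split into a higher and a lower set was drawn after their values were seen. The split is not sharp: for Ttr, B49 at 14.09 lay between B50 at 14.28 and B80 at 13.86. The points share their arrays and dissection, so no p is given.

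The 10 genes most like Ttr, among 569 other genes with an SD of at least 0.5 over the 8 cerebella, were Col8a1 (r = 0.99), Htr7 (0.97), C230034O21Rik (0.95), Tmem255a (0.93), 9430021M05Rik (0.92), Csgalnact1 (0.92), Prdm16 (0.91), Sostdc1 (0.91), Hapln1 (0.90) and Slit2 (0.90). All 10 had the same 4 arrays on top, which their selection by r nearly fixes. Sostdc1, a secreted antagonist of BMP and WNT signalling and a known choroid plexus gene, read 9.03, 7.70, 8.51 and 6.94 in the dexamethasone cerebella, against 8.74, 7.70, 7.61 and 8.62 in the vehicle cerebella. Col8a1, a short-chain collagen, read 7.96, 7.38, 7.71 and 6.50 in the dexamethasone cerebella, against 7.84, 6.36, 6.90 and 7.90 in the vehicle cerebella. Both genes are high in B39, B50, B78 and B81 whatever the treatment.

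A list of 40 other choroid plexus epithelial genes, 39 of them measured, was examined beside them, and Col8a1 and Sostdc1 belong to it. Of these 39, 19 had B78, B81, B39 and B50 as their 4 highest cerebella. Their mean level was 8.16, 7.86, 8.09 and 7.62 in the dexamethasone cerebella, against 8.11, 7.67, 7.63 and 8.10 in the vehicle cerebella. The groups overlapped almost fully, and the median difference over the 39 genes was 0.02, beside 0.01 over all genes.

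None of the 39 was called in cerebellum by limma, and 4 had an unadjusted p under 0.05. The 2 brightest over all 16 arrays were Igf2, a growth factor that choroid plexus secretes, and Slc12a2, the sodium, potassium and chloride cotransporter. Their log2 differences in cerebellum were -0.44 ± 0.14 for Igf2 (limma, adjusted p = 0.0821) and -0.11 ± 0.09 for Slc12a2 (limma, adjusted p = 0.674). Igf2 was called without vehicle cerebellum B80 (-0.59, adjusted p = 0.00796) and with array weights (-0.40, adjusted p = 0.0313). With the mean level of the 39 genes as a covariate in the cerebellar arrays alone, an alternative added after the data were seen, the Otx2 difference was -0.63 ± 0.12 (limma, adjusted p = 0.0193).

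Markers of neighbouring tissues were set against the same order. The 4 arrays highest for Ttr were on top for 1 of 12 ependymal and ciliated cell markers, 2 of 11 brainstem markers, 0 of 12 meningeal fibroblast markers, 0 of 10 endothelial markers and 0 of 10 cerebellum markers, beside the 4.52% of all genes given above. The brainstem markers, mostly HOX genes, had mean levels of 6.94, 5.57, 5.59 and 5.0 in the dexamethasone cerebella, against 6.33, 4.90, 6.12 and 5.74 in the vehicle cerebella. Their highest array was B39, also the highest for Kl, Folr1, Clic6 and Aqp1, and their lowest were B52 and B79, also the lowest for Ttr. The ependymal and ciliated markers had 6.74, 6.54, 6.80 and 6.38 in the dexamethasone cerebella, against 6.50, 6.35, 6.48 and 6.64 in the vehicle cerebella, with B52 and B79 lowest again. In their mean levels the brainstem and the ependymal and ciliated lists thus followed Ttr in part. Their share in the order of the choroid plexus genes was not tested. A count of the arrays on top cannot show an opposite order. The cerebellum markers had 11.01, 11.48, 11.12 and 11.68 in the dexamethasone cerebella, against 11.07, 11.26, 11.07 and 11.04 in the vehicle cerebella. They were highest in B52, B49 and B79, of which B52 and B79 were the lowest for Ttr. This relation was not tested either.

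Cell markers also moved with treatment beside Otx2, and their counts stand beside 2.84% of all genes called higher and 1.97% called lower in cerebellum. The 10 endothelial markers had mean levels of 6.96 to 7.08 in dexamethasone against 7.49 to 7.78 in vehicle cerebella, with 6 called lower and 1 higher. The 12 meningeal markers had 8.46 to 8.74 in dexamethasone against 8.64 to 9.41 in vehicle cerebella, with 3 called lower. The 10 cerebellum markers had 11.01 to 11.68 in dexamethasone against 11.04 to 11.26 in vehicle cerebella, with 1 called higher.

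The cerebellum marker called was Gabra6, a GABA receptor subunit of mature granule neurons, at 1.23 ± 0.22 (log2 difference, limma, adjusted p = 0.00419). Atoh1, which marks granule cell precursors and is named here after its value was seen, differed by 0.28 ± 0.22 (limma, adjusted p = 0.634). The part of any of these cell types in the Otx2 difference was not tested.

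In lung, dexamethasone raised 1 of the 7 genes, Clic6, and lowered none, beside 31.2% of all genes called there, 15.7% higher and 15.5% lower. Clic6 read 9.71, 9.84, 9.82 and 9.92 in the dexamethasone lungs, against 9.14, 8.92, 8.68 and 9.17 in the vehicle lungs. Its second probe set read 7.63, 7.89, 8.04 and 7.99 in the dexamethasone lungs, against 7.31, 7.04, 7.45 and 7.15 in the vehicle lungs. Both probe sets put every treated lung above every vehicle lung, as 15.1% of all genes did.

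The log2 difference of Clic6 in lung was 0.85 ± 0.31, or 1.8-fold (limma, adjusted p = 0.0446). On the second probe set it was 0.65 ± 0.22, or 1.57-fold (limma over the probe sets, adjusted p = 0.0424). In that same fit over the probe sets the first probe set was not called (limma, adjusted p = 0.0514). The test shares a spread over all 4 groups, so the wide cerebellar spread of Clic6 enters it. On the lung arrays alone the adjusted p was 0.000733. The call was lost in 14 of 27 alternatives, with adjusted p up to 0.166.

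RNA integrity was read as the 3′ minus 5′ signal of array controls. For Gapdh this signal moved with treatment in lung, at 0.45 to 0.71 in dexamethasone against 0.84 to 1.04 in vehicle lungs. For actin the treatments overlapped, at 0.45 to 0.64 in dexamethasone against 0.61 to 0.67 in vehicle lungs. Among the cerebella, vehicle array B81 stood apart, at 0.52 for Gapdh against 0.04 to 0.18 in the others. For actin B81 had 0.94 against 0.52 to 0.69. B81 is among the arrays highest for Ttr, and the part of RNA integrity in that order was not tested. With the Gapdh signal as a covariate the difference of Clic6 in lung was 1.20 and was not called (limma, adjusted p = 0.166). The lung markers, which are mostly epithelial, had mean levels of 12.60 to 12.85 in dexamethasone against 12.16 to 12.43 in vehicle lungs, and the ependymal and ciliated markers 8.26 to 8.40 against 7.55 to 7.87. Their part in the Clic6 difference was not tested. With the level of Xist, which was high on 3 dexamethasone and 1 vehicle lungs, as a covariate the Clic6 difference was 0.79 and was not called (limma, adjusted p = 0.08).

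Slc4a5 read 7.43, 7.86, 7.21 and 6.59 in the dexamethasone lungs, against 6.87, 7.08, 6.72 and 6.90 in the vehicle lungs. B46 lay below all vehicle lungs and the other 3 treated lungs above them. The difference of 0.38 ± 0.22 was not called (limma, adjusted p = 0.207), and single lungs moved it both ways. Without dexamethasone lung B46 it was 0.61 (adjusted p = 0.0205) and without dexamethasone lung B31 it was 0.18 (adjusted p = 0.548). With array weights it was 0.53 (adjusted p = 0.0351).

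Aqp1 read 11.86, 11.93, 11.44 and 11.70 in the dexamethasone lungs, against 11.96, 12.05, 12.00 and 12.15 in the vehicle lungs. The treated lungs lay below the vehicle lungs without overlap, as for 15.5% of all genes, yet the difference of -0.31 ± 0.21 was not called (limma, adjusted p = 0.301). The spread shared with the cerebellar arrays, whose SDs for Aqp1 were 0.41 and 0.46, enters this test too. On the lung arrays alone the adjusted p was 0.0869, and with the Gapdh 3′ minus 5′ signal as a covariate the difference was 0.01 (adjusted p = 0.997). The 10 endothelial markers had mean levels of 10.07 to 10.29 in dexamethasone against 10.56 to 10.79 in vehicle lungs, with 5 called lower and none higher. Their part in the Aqp1 values was not tested.

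Ttr read 6.91, 6.94, 6.67 and 6.96 in the dexamethasone lungs, and the difference from vehicle was 0.36 ± 0.19 (limma, adjusted p = 0.174). Without vehicle lung B22 it was 0.55 (adjusted p = 0.0254), while the 3 other Ttr probe sets differed by -0.01 to 0.07. Folr1 read 4.88, 5.75, 5.59 and 5.46 there, with a difference of 0.46 ± 0.27 (limma, adjusted p = 0.222). Treated and vehicle lungs overlapped for both genes.

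Kl read 4.14, 3.95, 4.02 and 4.67 in the dexamethasone lungs and Otx2 read 4.24, 4.22, 4.54 and 4.08. Both stayed near the floor in every lung, with differences of 0.18 ± 0.33 for Kl (limma, adjusted p = 0.73) and -0.09 ± 0.13 for Otx2 (limma, adjusted p = 0.657).

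**Figure D3:**
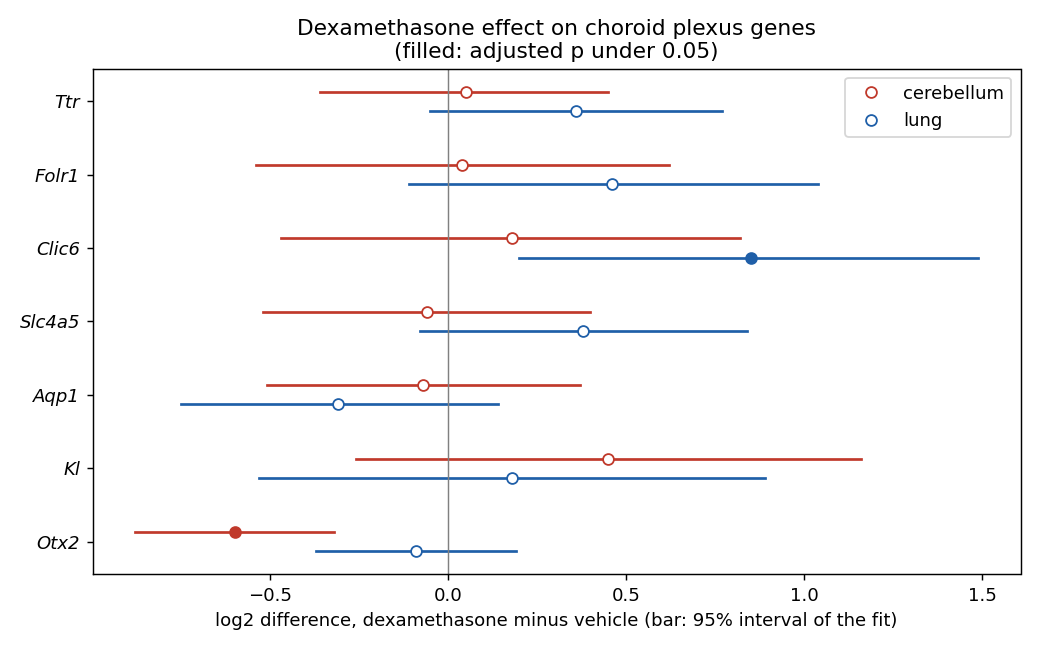
Log2 difference between dexamethasone and vehicle (horizontal axis) for the 7 choroid plexus genes, in cerebellum (red, upper point of each pair) and lung (blue, lower point); bars are 95% intervals of the limma fit and filled points have an adjusted p under 0.05. Otx2 in cerebellum, at -0.60, and Clic6 in lung, at 0.85, are the filled points.

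Whether the response differed between the organs was tested directly, as the cerebellum effect minus the lung effect. None of the 7 genes was called by limma, beside 21.3% of all genes (11.5% higher and 9.85% lower). At an unadjusted p under 0.05 there was 1 of the 7, Otx2, with a limma p of 0.0151 from the model fitted across all genes, which is no exact test. For Otx2 the difference of effects was -0.51 ± 0.19, with a 95% interval of -0.90 to -0.11 (limma, adjusted p = 0.0646). It was called in 5 of 25 alternatives, with adjusted p from 0.0215 to 0.142 over all of them. For Clic6 it was -0.67 ± 0.43, with a 95% interval of -1.59 to 0.24 (limma, adjusted p = 0.31). The call of Otx2 in cerebellum and that of Clic6 in lung are therefore not shown to be specific to an organ. For Otx2 the contrast cannot decide this. Its lung values, 4.08 to 4.57, lay near the floor, where differences are compressed.

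**Figure D4:**
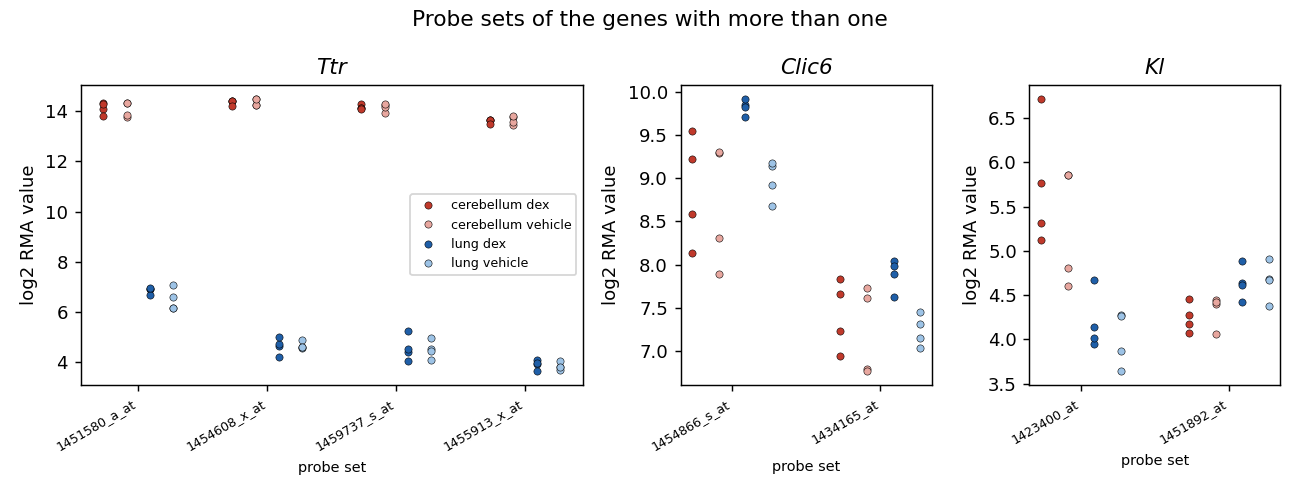
Log2 RMA values (vertical axis, a separate scale in each panel) of every probe set (horizontal axis) of Ttr, Clic6 and Kl, with each group of 4 arrays as a column of dots in the order cerebellum with dexamethasone, cerebellum with vehicle, lung with dexamethasone and lung with vehicle. All 4 Ttr probe sets lie higher in cerebellum than in lung and both Clic6 probe sets lie higher in dexamethasone than in vehicle lungs, whereas the second Kl probe set lies between 4.06 and 4.91 in all groups.

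Relatives of each gene were taken from lists. Among 10 other aquaporins none was called in cerebellum by limma and 0 had an unadjusted p under 0.05, whereas 4 were higher and 1 lower in lung, with a median difference in lung of 0.21, beside 0.05 over all genes. These and the following counts in lung stand beside 15.7% of all genes called higher and 15.5% called lower there. Aqp5, the water channel of alveolar type I cells and airway glands, read 12.26, 12.20, 12.58 and 12.02 in the dexamethasone lungs, against 10.97, 11.12, 10.99 and 11.42 in the vehicle lungs, a 2.21-fold rise (limma, adjusted p = 3.05e-05). Aqp3 rose 1.99-fold, Aqp4 2.09-fold and Aqp9 1.47-fold in lung (limma, adjusted p = 2.96e-06, 8.82e-06 and 0.00543). Aqp1 itself was not among the aquaporins that rose.

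Among the 4 other chloride intracellular channel genes, Clic3 and Clic5 were called higher and Clic4 lower in lung. Clic3 read 11.72, 11.57, 11.96 and 11.69 in the dexamethasone lungs, against 10.27, 10.66, 10.55 and 10.72 in the vehicle lungs, a 2.27-fold rise (limma, adjusted p = 5.23e-06). Clic5 rose 1.5-fold in lung (limma, adjusted p = 5.14e-05) and 1.26-fold in cerebellum (limma, adjusted p = 0.0286), where it lay near the floor at 4.23 to 4.81. The cerebellar call was lost in 11 of 26 alternatives, with adjusted p up to 0.975. Clic4 differed by -0.23 in lung (limma, adjusted p = 0.0163), a call lost in 4 of 25 alternatives. It rested on 1 of 3 probe sets, and with the mean of the Clic4 probe sets the difference was -0.02 (limma, adjusted p = 0.854).

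Of 12 other SLC4 bicarbonate transporters and carbonic anhydrases, 1 was called in cerebellum by limma. None was called in lung, where 2 had an unadjusted p under 0.05. Of the 12, 4 are also in the list of other choroid plexus genes. Slc4a4, a sodium bicarbonate cotransporter of astrocytes, rose 1.35-fold in cerebellum, by 0.43 ± 0.12 (limma, adjusted p = 0.0406). The call was lost in 17 of 26 alternatives, with adjusted p up to 0.337. Fitted each on its own, 0 of its 5 probe sets were called in cerebellum and 2 were called in lung. With the mean of its probe sets the difference was 0.19 in cerebellum (limma, adjusted p = 0.337). That mean gave -0.34 in lung (limma, adjusted p = 0.0109). Car2, a cytosolic carbonic anhydrase and the brightest of the 12 over all 16 arrays, differed in lung by -0.52 ± 0.29 (limma, adjusted p = 0.199).

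Of 9 measured OTX and hindbrain patterning factors none was called by limma in either organ, and 1 had an unadjusted p under 0.05 in cerebellum and 1 in lung. The 2 brightest over all 16 arrays were Bmp6, a BMP ligand, and Msx2, a homeodomain factor of the dorsal midline. In cerebellum Bmp6 differed by -0.09 ± 0.12 (limma, adjusted p = 0.825) and Msx2 by -0.48 ± 0.15 (limma, adjusted p = 0.0868). Of 5 measured folate transport and metabolism genes none was called by limma in either organ, and 0 had an unadjusted p under 0.05. Of 11 genes of the klotho and FGF axis none was called in cerebellum by limma, with 0 at an unadjusted p under 0.05, and 1 was higher and 1 lower in lung. Of 5 measured retinol and thyroxine carriers and their partners 1 was higher in cerebellum, and 1 was higher and 1 lower in lung. Of 12 genes of prolactin and growth hormone receptor signalling none was called in cerebellum by limma, with 1 at an unadjusted p under 0.05, and 3 were higher and 4 lower in lung.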

How the data were processed

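The deposited values are log2 signals made by the authors with RMA from Affymetrix mouse arrays, per the submitters' processing notes. Its version and settings are not stated there. Undetected transcripts also receive a value, and differences near the floor are compressed. Of 45101 probe sets, 64 were array controls, 34945 had 1 gene symbol, 932 several and 9160 none. Symbols were updated through gene identifiers for 18032 of 18193 genes.

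Genes were tested in limma 3.58.1 (R 4.3.3) on a model of group means, with a spread shared by the 4 groups (12 residual degrees of freedom) and moderated variances. Arrays give no read depth, and 4 per group limit the precision. The fit was run on simulated data with independent noise around group means. Signs were checked only among the genes called, where they were right. Exact permutation p-values planned for the correlations with Ttr are not printed, since the points share their arrays and dissection. All arrays share a hybridisation date, so no batch could be tested.

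The members, the 17 gene lists and the tests were chosen with earlier results of these data known. Of each relative list described by gene, called members with the smallest adjusted p (at most 4 per comparison) or the 2 brightest were eligible to be named, with the 10 genes most like Ttr. Alternatives changed the probe set rule, dim-gene filter, normalization, arrays fitted, variance model, weights or covariates, or left out 1 array.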

Additional observations from a re-analysis of the deposited data

Results flagged for a closer look

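Among 28 groups of 4 values of the 7 genes, 2 held an array far from the others, and chance alone marks about 1 in 20 groups. Otx2 read 4.57 in vehicle lung B14, above the other 3 vehicle lungs at 4.26 to 4.31, all near the floor. Slc4a5 read 5.89 in vehicle cerebellum B79, below the other 3 at 6.47 to 6.58; B79 was also the lowest cerebellum for Ttr, Kl and Clic6.

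Over all genes, 21.3% were called for the difference of effects, 11.5% higher and 9.85% lower. Many relatives were named for their calls in lung, and those values enter this contrast. The count that follows therefore comes in part from that choice. The cerebellum effect minus the lung effect was past the threshold for 12 of the named relatives. It was negative, so the effect was lower in cerebellum than in lung, for Aqp3 (-1.04), Aqp4 (-1.31), Aqp5 (-1.34), Clic3 (-1.28), Igf2 (-1.07), Kcnj13 (-1.24), Perp (-1.69), Slc12a2 (-0.60) and Slc13a4 (-1.22), with limma adjusted p from 9.04e-05 to 0.00427, and for Aqp9 (-0.57, limma, adjusted p = 0.0464). In cerebellum Aqp3 (4.84 to 5.17), Aqp5 (5.17 to 5.81), Aqp9 (5.34 to 5.66) and Clic3 (4.98 to 5.47) lay below the array medians. A cerebellar change could be compressed at so low a signal. For these genes the contrast cannot decide whether the response differs between organs. The difference of effects was positive for Igfbp2 (2.90, limma, adjusted p = 3.73e-06) and Slc4a4 (0.65, limma, adjusted p = 0.00981). The Slc4a4 value is that of the brightest of its 5 probe sets.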

How the results depend on the processing

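No paired analysis was possible because no replicate number is shared between groups. The number of genes called in cerebellum (874) was 1456 when each of 45037 probe sets was fitted, which tests more features, and 1699 with array weights. Leaving out 1 array gave 528 (without dexamethasone cerebellum B50) to 1229 (without dexamethasone lung B46), and 557 without vehicle cerebellum B79. In lung the count (5679) was 10795 over the probe sets and 1806 with the Gapdh 3′ minus 5′ signal as a covariate; for the difference of effects (3879) it was 6454 and 2009, and for the tissue difference (10497) 21702 and 5053. The lower counts come with a covariate that differs between the groups compared, and the cause was not tested. Of the 7 genes, 1 tissue difference reversed: Kl by its second probe set, at -0.33 (limma, adjusted p = 0.0533), near the floor. With the Gapdh covariate the Kl tissue difference of 1.56 was not called (limma, adjusted p = 0.236). Ttr, Otx2, Folr1 and Aqp1 kept the direction and call of their tissue difference in all alternatives tried. The treatment difference of Otx2 in cerebellum did so too, although part of its alternatives could not move it. Signals near the floor (Kl and Otx2 in lung) and near the top (Ttr in cerebellum) limit what a difference can show.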

Other observations

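In lung, which has no choroid plexus, 15 of the 39 other choroid plexus genes were called higher and 2 lower after dexamethasone, beside 15.7% higher and 15.5% lower over all genes, with a median log2 difference of 0.35, beside 0.05 over all genes. Kcnj13, an inwardly rectifying potassium channel, read 9.57, 9.48, 9.40 and 8.83 in the dexamethasone lungs, against 7.99, 7.63, 7.78 and 8.07 in the vehicle lungs. The groups did not overlap, and the rise was 2.74-fold (limma, adjusted p = 2.05e-05). Slc13a4, a sodium sulfate cotransporter, rose 2.36-fold, with 7.50, 7.42, 7.42 and 7.68 in the dexamethasone lungs, against 5.87, 6.11, 6.62 and 6.47 in the vehicle lungs (limma, adjusted p = 6.45e-05). Perp, a desmosome gene, rose 2.91-fold (limma, adjusted p = 4.75e-05).

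Igfbp2, an insulin-like growth factor binding protein, went the other way. It read 8.44, 8.15, 7.76 and 7.27 in the dexamethasone lungs, against 10.76, 10.91, 11.17 and 10.83 in the vehicle lungs. Every treated lung lay far below every vehicle lung, by a log2 difference of -3.02 ± 0.19, or 8.09-fold (limma, adjusted p = 1.45e-08). In cerebellum it read 10.48 to 10.96 in dexamethasone and 10.65 to 11.01 in vehicle mice, with overlap. The ependymal and ciliated cell markers, which ciliated airway cells share, had 10 of 12 members called higher in lung, with a median of 0.67.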
